A study of Homo sapiens with 6 samples.

Results

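Chaperones are the proteins that help other proteins fold, and 36 of their genes, with the genes that regulate them in the endoplasmic reticulum (ER), were followed through an NPM1 knockdown. The genes were taken by symbol from a written list, and each of the 36 symbols was found once among the 62703 genes of the deposited table, of which 41737 have a symbol. They comprise 11 cytosolic chaperones and cochaperones, 3 mitochondrial chaperones, 15 ER chaperones and folding enzymes, 3 regulators of the unfolded protein response (UPR) and 4 genes of ER-associated degradation (ERAD). All 36 had a mean of at least 1 TPM, a length-normalised unit of transcript abundance, over the 6 libraries and were tested with 15768 genes in all.

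The RNA came from the human embryonic stem cell line H9, sequenced in 2 groups of 3 libraries. The siNPM1 cells had received a small interfering RNA against NPM1, whose treatment label uses B23, another name of the nucleolar protein nucleophosmin. The siControl cells, of the same line, carry only the treatment label Control. The dose, the time after treatment and the duplex sequences are not given in the sources used here. A single line and a single treatment against NPM1 limit what the groups can stand for. The series design text calls the replicates biological.

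Cytosolic chaperones centre on the Hsp70 machine, in which a J-domain cochaperone loads an unfolded client and a nucleotide exchange factor releases it, with Hsp90 acting on later folding steps. When unfolded proteins build up in the cytosol, the transcription factor HSF1 binds heat shock elements and raises the inducible members. In the ER lumen, the Hsp70 protein BiP and the lectins calnexin and calreticulin fold secreted and membrane proteins, and protein disulfide isomerases form their disulfide bonds. Unfolded protein there releases ATF6 and activates IRE1, which splices XBP1 mRNA, and both arms act through ER stress response elements (ERSE) in promoters. Pluripotent cells are known for high chaperone levels.

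Promoter stretches are shown for members that carry one of these elements, chosen among genes with a wide spread between libraries and a few others. DNAJB9, which also had a wide spread, held neither spelling of the ER element searched and is not shown. The sequences are RefSeq promoter windows (GRCh38.p14), running from 250 bases before to 50 bases after each annotated start, and 35 members matched a window. All stretches read 5′ to 3′ on the gene's own strand. The first set holds heat shock elements, with the searched letters in capitals, and pairs the stress-inducible HSPA1A, HSPA1B, DNAJB1 and HSPB1 with the Hsp90 gene HSP90AA1.
HSPA1A (chr6:31815397-31815484, plus strand): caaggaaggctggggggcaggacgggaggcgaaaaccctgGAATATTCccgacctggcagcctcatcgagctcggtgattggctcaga
HSPA1B (chr6:31827593-31827680, plus strand): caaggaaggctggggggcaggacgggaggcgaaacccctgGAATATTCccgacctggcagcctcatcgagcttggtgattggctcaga
DNAJB1 (chr19:14518417-14518494, minus strand): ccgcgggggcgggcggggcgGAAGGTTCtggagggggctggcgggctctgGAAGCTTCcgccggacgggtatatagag
HSPB1 (chr7:76302471-76302518, plus strand): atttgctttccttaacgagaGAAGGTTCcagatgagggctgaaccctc
HSP90AA1 (chr14:102087100-102087152, minus strand): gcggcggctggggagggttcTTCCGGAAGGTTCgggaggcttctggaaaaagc

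The second set holds ER stress response elements, in capitals, from the BiP gene HSPA5, the transcription factor gene XBP1, the calreticulin gene CALR and the ERAD gene HERPUD1.
HSPA5 (chr9:125241371-125241429, minus strand): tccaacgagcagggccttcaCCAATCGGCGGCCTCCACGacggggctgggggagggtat
XBP1 (chr22:28800583-28800641, minus strand): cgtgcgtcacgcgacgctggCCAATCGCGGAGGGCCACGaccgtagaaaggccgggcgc
CALR (chr19:12938364-12938422, plus strand): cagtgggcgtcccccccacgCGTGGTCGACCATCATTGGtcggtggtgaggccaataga
HERPUD1 (chr16:56932005-56932055, plus strand): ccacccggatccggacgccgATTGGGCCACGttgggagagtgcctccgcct

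Each motif was searched on both strands. The ERSE, spelled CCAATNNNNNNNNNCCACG, occurred in the windows of 7 members (HSPA5, HSP90B1, CANX, CALR, PDIA6, CRELD2 and XBP1) and in 25 of all 27305 genes with a window (0.0916%). The related ERSE-II, spelled ATTGGNCCACG, occurred in 3 members (HERPUD1, HYOU1 and SDF2L1) and in 0.0696% of all genes. A heat shock element of 3 units, GAANNTTCNNGAA, occurred in 5 members (HSPA8, HSP90AA1, HSP90AB1, DNAJA1 and HSPD1) and in 0.608% of all genes. The shorter GAANNTTC, which lies inside the longer motif, occurred in 10 members (these 5 and HSPA1A, HSPA1B, DNAJB1, HSPB1 and CANX) and in 8.21% of all genes. In the first set above, the capitals mark this shorter spelling for HSPA1A, HSPA1B, DNAJB1 and HSPB1, and the longer one for HSP90AA1 alone. A match describes letters and not a bound site, and windows without one may hold elements of another spelling. The HSPA1A and HSPA1B stretches were identical at 86 of 88 bases.

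The knockdown and the state of the libraries bear on every value below. NPM1 stood at 173, 165 and 238 TPM in siNPM1 replicates 1 to 3, against 3109, 2969 and 3132 TPM in siControl replicates 1 to 3 (limma, log2 fold change -4.01, adjusted p = 0.000852). On the first principal component, with 54.4% of the variance, the siNPM1 libraries scored 30.4 to 32.2, siControl replicate 2 scored 28.1, and the remaining controls scored -59.9 and -61.7. Transcripts of the mitochondrial genome made up 18.6% to 21.6% of the total in siNPM1, 23.3% in siControl replicate 2, and 10.96% and 11.1% in siControl replicates 1 and 3. The second component (17.5%) set siNPM1 replicate 1, with a score of 48.7, off from the rest. The labels name no batch, and these 2 libraries are each left out in turn further on. All 6 pluripotency markers were present, with POU5F1 at 1375 to 1393 TPM in siNPM1 and 1706 to 2266 TPM in siControl. By log2 fold change 4 of the 6 were higher and 2 lower, and none passed (limma). The 2 lower ones, POU5F1 and NANOG, did not overlap between the groups, an order that 8.55% of all tested genes had. NANOG stood at 69.1, 67.0 and 71.0 TPM in siNPM1, against 86.9, 90.7 and 93.7 TPM in siControl. The 4 higher ones overlapped, among them SOX2 at 239, 113 and 126 TPM in siNPM1, against 82.4, 119 and 72.6 TPM in siControl. Of 12 germ layer, trophoblast and fibroblast markers, 4 reached a mean of 1 TPM (MIXL1, PAX6, COL1A2 and THY1). The 12 summed to 127 to 334 TPM in siNPM1 and 396 to 429 TPM in siControl. Most of that was THY1 (up to 389 TPM), which pluripotent cells also express. The fibroblast genes LUM and DCN were listed at 0 in every library, whereas the fibroblast gene COL1A2 was among the 4 present.

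No chaperone gene passed the test with all 6 libraries (limma on log2(TPM + 1), Benjamini-Hochberg adjusted p under 0.05). The share over all tested genes was 0.0254%, which is 4 genes. The members' adjusted p ran from 0.225 to 0.999, and 5 members had an unadjusted p under 0.05 (HSPA8, CANX, DNAJC3, XBP1 and HERPUD1), 13.9% of them against 19.7% of all tested genes. The log2 fold change, siNPM1 over siControl, was positive for 13 members and negative for 23, with a median of -0.13 (-0.22 without siControl replicate 2), whereas 59.9% of all tested genes were positive with a median of 0.10. With 3 libraries a side, the smallest exact permutation p is 0.1. The 2 groups did not overlap for HSPA8 and CANX, higher in siNPM1, a share of 5.56% beside 16.2% of all tested genes. They did not overlap for HSPD1 and DNAJC3, lower in siNPM1, again 5.56%, beside 8.55% of all tested genes. Summed over the 36 genes, the level was 8606, 10752 and 11192 TPM in siNPM1, against 11727, 10049 and 11824 TPM in siControl, so the groups overlapped. In bulk RNA, fewer cells expressing a gene and less of its RNA per cell cannot be told apart.

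**Figure D1:**
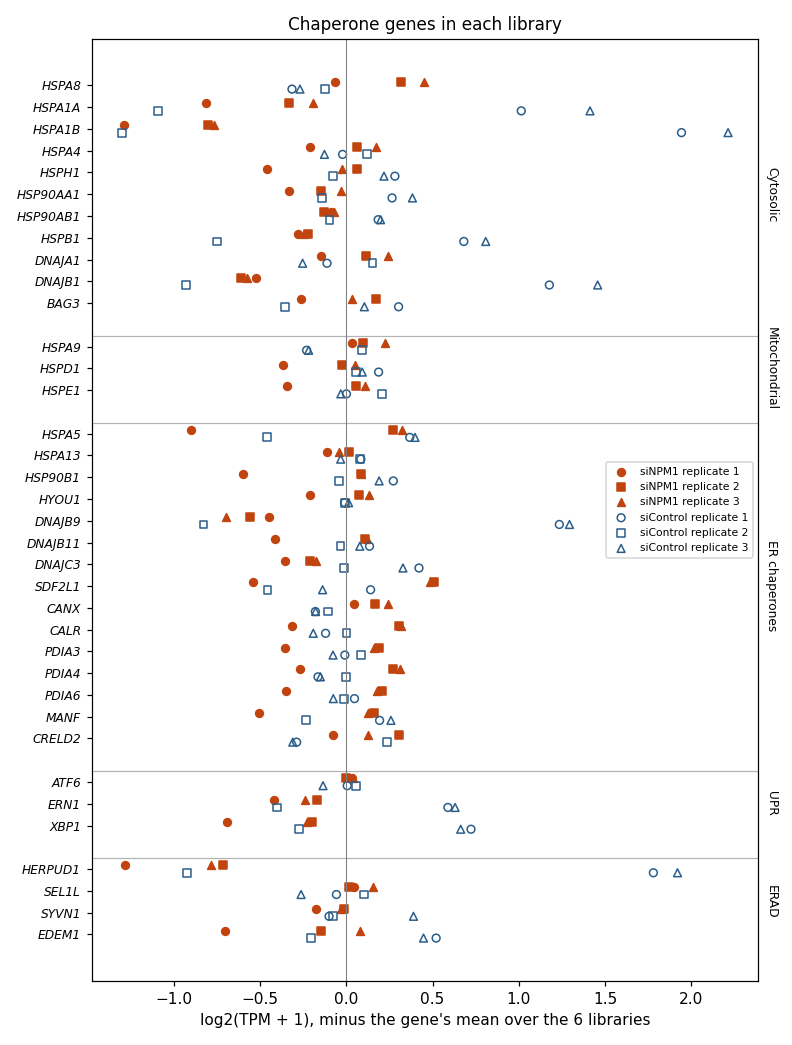
Level of each of the 36 genes in each library, as log2(TPM + 1) minus the gene's mean over the 6 libraries (horizontal axis), by class. Filled symbols are the 3 siNPM1 libraries and open symbols the 3 siControl libraries, with circles, squares and triangles for replicates 1, 2 and 3; the open square of siControl replicate 2 lies with the filled symbols for HSPA1A, HSPA1B, DNAJB1, DNAJB9 and HERPUD1, and the filled circle of siNPM1 replicate 1 lies at the low end for most ER chaperones.

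Among the cytosolic chaperones, the constitutive Hsp70 was higher in every siNPM1 library and the inducible Hsp70 genes were high in only a pair of controls. HSPA8, which encodes the constitutive Hsc70, stood at 872, 1136 and 1246 TPM in siNPM1, against 733, 837 and 757 TPM in siControl. The lowest siNPM1 library was above the highest control, and the means were 1084 ± 192 and 775 ± 54.5 TPM (SD, n = 3 each, limma log2 fold change 0.47, SE 0.156, adjusted p = 0.227). HSPA1B, one of a pair of genes for inducible Hsp70, stood at 32.1, 45.5 and 46.5 TPM in siNPM1, against 309.7, 31.9 and 374 TPM in siControl. Its neighbour HSPA1A stood at 26.3, 37.1 and 40.9 TPM in siNPM1, against 95.8, 21.5 and 127 TPM in siControl. In both genes siControl replicates 1 and 3 were above all siNPM1 libraries and siControl replicate 2 was below them, so the groups overlapped (limma, log2 fold change -1.90, SE 0.880, adjusted p = 0.278 for HSPA1B and -0.89, SE 0.621, adjusted p = 0.421 for HSPA1A).

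The 2 inducible genes lie close together on chromosome 6 (GRCh38, 31815464 to 31817946 for HSPA1A and 31827735 to 31830255 for HSPA1B, both protein-coding and on the plus strand). Of the 50-base stretches of the HSPA1A transcript, 72.6% also occur in HSPA1B, so the split of reads between them is uncertain and their sum is the safer quantity. The sum was 58.4, 82.6 and 87.4 TPM in siNPM1, against 405, 53.4 and 500.1 TPM in siControl. Set against HSPA8, the sum was 0.0670 to 0.0727 of the HSPA8 level in the siNPM1 libraries and 0.0638 in siControl replicate 2, but 0.553 and 0.661 in siControl replicates 1 and 3. The exact two-sided permutation p was 0.4 for the sum and 0.4 for this ratio.

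In DNAJB1 and HSPB1, as in the inducible Hsp70 genes, siControl replicates 1 and 3 lay above the siNPM1 libraries and siControl replicate 2 below them. DNAJB1, the heat-inducible J-domain partner of Hsp70, stood at 46.0, 43.2 and 44.5 TPM in siNPM1, against 152, 34.6 and 185 TPM in siControl (limma, log2 fold change -1.14, SE 0.585, adjusted p = 0.308). HSPB1, the small heat shock protein Hsp27, stood at 123.01, 128 and 126 TPM in siNPM1, against 239.9, 88.5 and 262 TPM in siControl (limma, log2 fold change -0.50, SE 0.393, adjusted p = 0.471). For both genes the siNPM1 values spanned a narrow band and the siControl values lay on both sides of it. BAG3, a cochaperone that links Hsp70 to autophagy and is heat-inducible, shared that order only in part. It stood at 8.44, 11.7 and 10.6 TPM in siNPM1, against 12.95, 7.84 and 11.2 TPM in siControl. siControl replicate 2 was again the lowest library and siControl replicate 1 the highest, but siControl replicate 3 lay within the siNPM1 range.

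By group mean TPM the Hsp90 genes stood highest in the cytosolic set, and they differed less between libraries. HSP90AB1, the constitutive Hsp90, stood at 1961, 1907 and 1988 TPM in siNPM1, against 2371, 1950.1 and 2394 TPM in siControl. HSP90AA1, the inducible Hsp90, stood at 999.6, 1135 and 1228 TPM in siNPM1, against 1511, 1139 and 1639.6 TPM in siControl. In both, siControl replicate 2 fell inside the siNPM1 range and the other controls above it (limma, log2 fold change -0.19, adjusted p = 0.391 and -0.34, adjusted p = 0.296). The exchange factors HSPA4 and HSPH1 had log2 fold changes of 0.02 (95% interval -0.31 to 0.34) and -0.28 (-0.70 to 0.14), and the J-domain gene DNAJA1 had 0.14 (-0.23 to 0.51). The cytosolic class had a median log2 fold change of -0.28, with 3 members positive and 8 negative, although the signs of HSPA4 and BAG3 turned under other scalings.

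The mitochondrial chaperones differed between the groups by small amounts and not in 1 direction. HSPA9, the mitochondrial Hsp70 mortalin, stood at 217, 227 and 249 TPM in siNPM1, against 181, 227 and 183 TPM in siControl. siControl replicate 2 again lay among the siNPM1 values, here above the other controls (limma, log2 fold change 0.24, SE 0.128, adjusted p = 0.325). HSPD1, the barrel-forming Hsp60, stood at 808, 1027 and 1082 TPM in siNPM1, against 1188, 1084 and 1112 TPM in siControl. Its groups did not overlap, but the highest siNPM1 library, at 1082 TPM, was next to the lowest control, at 1084 TPM. HSPE1, the Hsp10 lid of that barrel, shares a divergent locus with HSPD1 on chromosome 2 and overlapped between the groups at 817, 1077 and 1116 TPM in siNPM1 and 1036, 1195 and 1013 TPM in siControl. In HSPD1 24.8% and in HSPE1 27.2% of the 50-base stretches also occur in other genes, pseudogenes among them, so part of their reads may be assigned elsewhere.

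**Figure D2:**
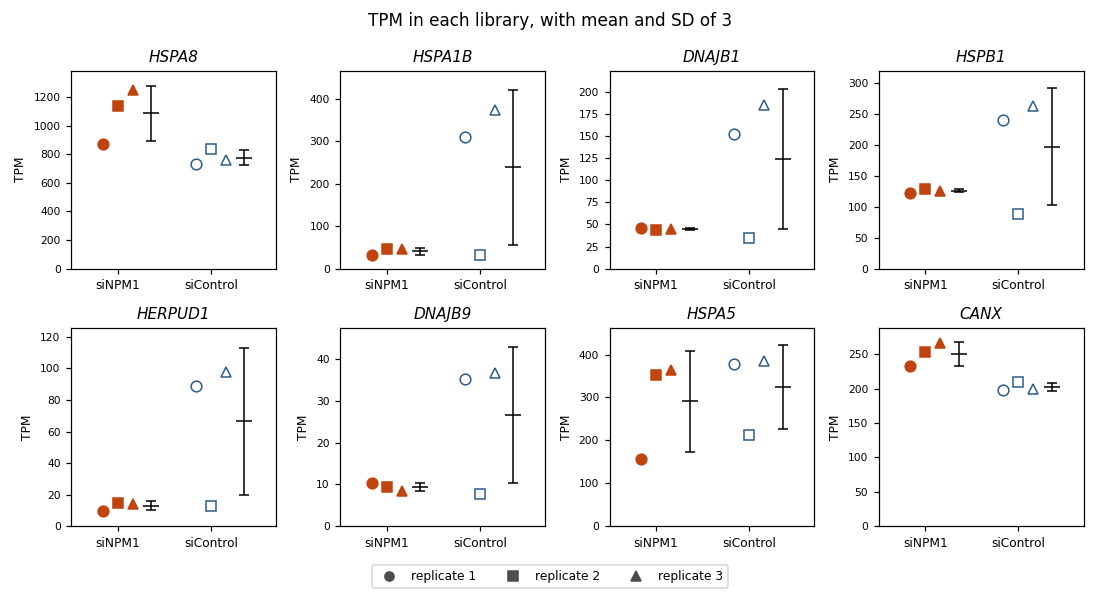
TPM (vertical axis, from 0) of 8 genes in each siNPM1 and siControl library, with the mean and SD of 3 libraries beside each group. HSPA8 and CANX are higher in all 3 siNPM1 libraries; HSPA1B, DNAJB1, HSPB1, HERPUD1 and DNAJB9 are high in siControl replicates 1 and 3 and not in replicate 2; HSPA5 is low in siNPM1 replicate 1 and in siControl replicate 2.

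The 15 ER chaperones and folding enzymes had no common direction: 7 were higher and 8 lower in siNPM1 by their log2 fold change, with a median of -0.000716. That median was 0.18 without siNPM1 replicate 1 and -0.13 with each library centred on its median, and the signs of HYOU1, PDIA3 and PDIA6 turned under other scalings. CANX, which encodes the membrane lectin calnexin, stood at 232, 253 and 267 TPM in siNPM1, against 199, 209 and 199 TPM in siControl. Each siNPM1 library was above each control (means 251 ± 17.4 and 202 ± 6.06 TPM, SD, n = 3 each, limma log2 fold change 0.31, SE 0.101, adjusted p = 0.225). DNAJC3, the cochaperone p58IPK of BiP, stood at 8.46, 9.47 and 9.72 TPM in siNPM1, against 15.2, 11.01 and 14.2 TPM in siControl, with each siNPM1 library below each control (limma log2 fold change -0.49, SE 0.169, adjusted p = 0.232). DNAJB9, the cochaperone ERdj4 and a classic IRE1 and XBP1 target, stood at 10.3, 9.46 and 8.49 TPM in siNPM1, against 35.3, 7.69 and 36.8 TPM in siControl. Here siControl replicates 1 and 3 were high and replicate 2 was the lowest of all libraries (limma log2 fold change -1.13, SE 0.551, adjusted p = 0.291).

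BiP and several lumenal folding enzymes had an SD among the siNPM1 libraries that was larger than the difference between the group means. HSPA5, which encodes BiP, stood at 156, 352 and 365 TPM in siNPM1, against 377, 212 and 385 TPM in siControl. siNPM1 replicate 1 was the lowest library and siControl replicate 2 the next, and the remaining values were close together (limma log2 fold change -0.21, 95% interval -1.12 to 0.71, adjusted p = 0.766). HSP90B1, the ER Hsp90 GRP94, stood at 465, 745 and 746 TPM in siNPM1, against 849, 683 and 802 TPM in siControl, with siNPM1 replicate 1 lowest again. CALR, which encodes calreticulin, stood at 407, 627 and 631 TPM in siNPM1, against 466, 507 and 444 TPM in siControl, so that siNPM1 replicates 2 and 3 lay above all controls and replicate 1 below them. SDF2L1, a stromal cell-derived factor 2-like ER protein that works with BiP and J-domain proteins, stood at 7.38, 16.4 and 16.1 TPM in siNPM1, also on both sides of the controls, and at 12.5, 7.90 and 10.1 TPM in siControl.

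In the disulfide isomerases, too, the siNPM1 libraries lay on both sides of the controls. PDIA4 stood at 143, 208 and 214 TPM in siNPM1, against 154, 173 and 156 TPM in siControl. PDIA3, the isomerase that works with the lectins, stood at 376, 551 and 539 TPM in siNPM1, against 479, 511 and 457 TPM in siControl. PDIA6 stood at 237, 349.9 and 343 TPM in siNPM1, against 313, 299.9 and 287 TPM in siControl. In all 3 genes siNPM1 replicate 1 was the lowest library and siNPM1 replicates 2 and 3 were the highest, and the log2 fold changes were 0.21 (95% interval -0.20 to 0.62), -0.000716 (-0.40 to 0.40) and 0.03 (-0.37 to 0.42). HYOU1, the large ER Hsp70 relative, stood at 77.5, 94.3 and 98.5 TPM in siNPM1, against 89.0, 89.3 and 90.5 TPM in siControl, again with replicate 1 below and replicates 2 and 3 above all controls.

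The remaining ER members had log2 fold changes between -0.15 and 0.24. MANF, a secreted and ER-resident BiP partner, stood at 81.7, 130.1 and 127 TPM in siNPM1, against 133, 98.8 and 139 TPM in siControl, and DNAJB11, the BiP cochaperone ERdj3, at 47.4, 68.6 and 69.2 TPM in siNPM1 against 69.8, 62.0 and 67.1 TPM in siControl. Both were lowest in siNPM1 replicate 1 and had log2 fold changes of -0.15 and -0.12. CRELD2, an ER stress-inducible isomerase-like protein, had 0.24 (95% interval -0.25 to 0.73), and HSPA13, a microsomal Hsp70 relative, had -0.09 (-0.36 to 0.18). These intervals include both directions.

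The UPR regulators split between the sensor ATF6, whose groups overlapped in a narrow range, and XBP1 and ERN1, whose transcripts were high in siControl replicates 1 and 3. XBP1 stood at 57.2, 80.7 and 79.3 TPM in siNPM1, against 154, 76.7 and 148 TPM in siControl (means 72.4 ± 13.1 and 126 ± 42.9 TPM, SD, n = 3 each, limma log2 fold change -0.74, SE 0.291, adjusted p = 0.244). ERN1, which encodes IRE1, stood at 1.55, 2.03 and 1.89 TPM in siNPM1, against 4.12, 1.58 and 4.27 TPM in siControl (limma log2 fold change -0.55, SE 0.320, adjusted p = 0.353). In both genes siControl replicate 2 lay within the siNPM1 range. ATF6 stood between 14.9 and 15.4 TPM in siNPM1 and between 13.5 and 15.6 TPM in siControl (log2 fold change 0.05, 95% interval -0.26 to 0.35, with the sign turned under other scalings). A gene-level TPM does not separate spliced from unspliced XBP1 mRNA.

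Of the 4 ERAD genes, HERPUD1 had a wide spread between libraries and SEL1L and SYVN1 a narrow one. HERPUD1, which encodes the ER stress-inducible scaffold HERP, stood at 9.75, 15.0 and 14.2 TPM in siNPM1, against 88.8, 12.8 and 98.0 TPM in siControl. siControl replicate 2 lay inside the siNPM1 range, at a level 7.28 times below the mean of siControl replicates 1 and 3 (limma log2 fold change -1.85, SE 0.731, adjusted p = 0.245). EDEM1, the mannosidase-like protein that hands misfolded glycoproteins to ERAD, stood at 10.1, 15.3 and 18.0 TPM in siNPM1, against 24.9, 14.7 and 23.6 TPM in siControl, with siControl replicates 1 and 3 again the highest (log2 fold change -0.51, adjusted p = 0.326). The ubiquitin ligase SYVN1 (HRD1) and its partner SEL1L had log2 fold changes of -0.14 (95% interval -0.58 to 0.30) and 0.14 (-0.23 to 0.51).

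Within the siControl group, 17 of the 36 genes (47.2%) had both siControl replicates 1 and 3 above the other 4 libraries, a pattern that 20.9% of all tested genes had. The 17 held 7 of the 11 cytosolic genes, 5 of the 15 ER chaperones, HSPD1, ERN1, XBP1, HERPUD1 and EDEM1. The opposite order, siControl replicates 1 and 3 below all others, held for 5 members (HSPA8, HSPA9, CANX, CRELD2 and SEL1L), 13.9% beside 35.7% of all tested genes. The mean of siControl replicates 1 and 3 was 10.7 times the level of replicate 2 for HSPA1B, 7.28 times for HERPUD1, 5.17 times for HSPA1A, 4.87 times for DNAJB1 and 4.68 times for DNAJB9. The share of mitochondrial transcripts, given above, separated the same libraries in the opposite direction, and its part in these levels was not tested. With TPM rescaled without mitochondrial and ribosomal protein genes, the log2 fold change of siNPM1 over siControl was -1.83 for HSPA1B and -1.79 for HERPUD1, against -1.90 and -1.85 as deposited. The same rescaling moved smaller differences, from -0.19 to -0.11 for HSP90AB1, -0.22 to -0.14 for HSPD1 and 0.47 to 0.56 for HSPA8. It left 3 members without overlap between the groups, against 4 as deposited. Such fold changes compare the groups and not the controls with each other. The ratios between controls are the libraries' own values, and no test was made between libraries of one group.

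Within the siNPM1 group, replicate 1 was the lowest of all 6 libraries for 22 of the 36 genes (61.1%) and the highest for 0, where 13.4% and 25.3% of all tested genes were. Of the ER chaperones 12 of 15 were lowest there, of the cytosolic genes 3 of 11. The other classes shared the trait, with 2 of 3 mitochondrial genes, 2 of 3 UPR regulators and 3 of 4 ERAD genes. Replicate 1 stood below the mean of siNPM1 replicates 2 and 3 for 32 of the members, and for 45.6% of all tested genes. The median member of the ER class reached 68.7% of the level in replicates 2 and 3, and the median cytosolic member 79.3%. That median was 76.6% for the mitochondrial genes, 79.1% for the UPR regulators and 77.9% for the ERAD genes. HSPA5 had the lowest ratio, 0.435. Some cell markers also set this library off, and others did not. The neural marker PAX6 stood at 7.87, 1.5 and 1.16 TPM in siNPM1, against 1.9, 0.85 and 1.16 TPM in siControl. SOX2 was highest in siNPM1 replicate 1, and THY1 stood at 90.4, 275 and 305 TPM in siNPM1, against 389, 369 and 364 TPM in siControl. POU5F1 and NANOG did not set it off, at 1.005 and 1.002 times the mean of siNPM1 replicates 2 and 3. The part of these markers in the chaperone levels was not tested. Of the 10 members with an ERSE or ERSE-II in their window, 8 were lowest in siNPM1 replicate 1, and of the other 11 matched ER, UPR and ERAD members 8 were.

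**Figure D3:**
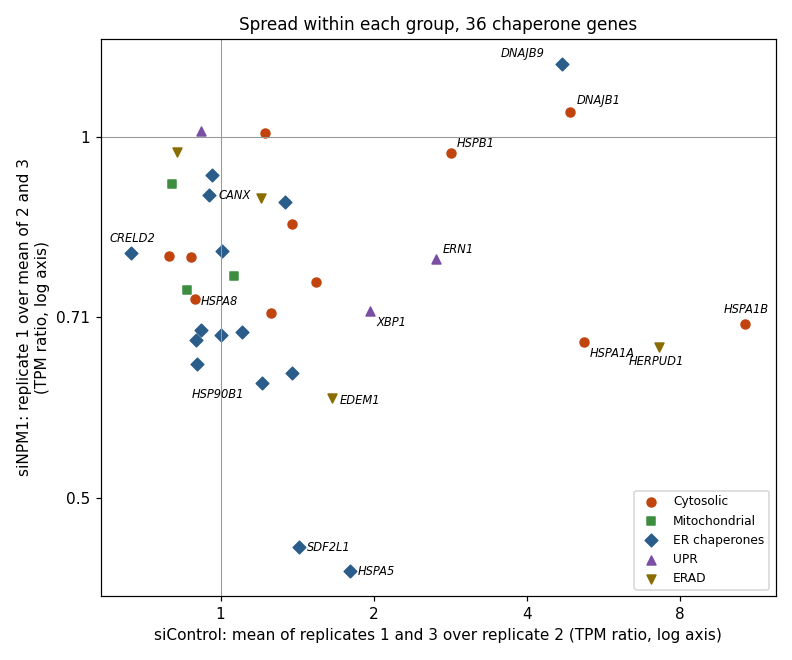
Each point is 1 of the 36 genes. The horizontal axis gives the siControl TPM ratio, mean of replicates 1 and 3 over replicate 2, and the vertical axis the siNPM1 TPM ratio, replicate 1 over the mean of replicates 2 and 3, both on log axes; HSPA1B, HERPUD1, HSPA1A, DNAJB1 and DNAJB9 lie far to the right, and HSPA5 and SDF2L1 lie lowest.

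The groups were compared again without each of these libraries. Without siControl replicate 2, 13 members passed (limma, adjusted p under 0.05). Of these 2 were higher in siNPM1, 5.56% of the members beside 24.1% of all tested genes, and 11 of the 36 were lower, beside 12.9% of all tested genes. The lower ones were HSPA1A, HSPA1B, HSP90AA1, HSP90AB1, HSPB1 and DNAJB1 in the cytosol, DNAJB9 and DNAJC3 in the ER, ERN1, XBP1 and HERPUD1, and the higher ones were HSPA9 and CANX. Among them, DNAJB1 stood at -1.89 on the log2 scale (adjusted p = 0.00138), HSPA1B at -3.03 (adjusted p = 0.00162), HERPUD1 at -2.78 (adjusted p = 0.00172), XBP1 at -1.06 (adjusted p = 0.00839) and CANX at 0.33 (adjusted p = 0.0277, limma). HSPA8 did not pass in that fit (log2 fold change 0.53, adjusted p = 0.0510). The fit sets 3 siNPM1 libraries against a pair of controls that lie close together, and 5833 genes passed in it, against 4 with all libraries. The groups then did not overlap for 5 members, higher, and 17, lower, where 40.6% and 24.1% of all tested genes did not.

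Without siNPM1 replicate 1, no member passed (limma), and 7 ER chaperones then lay higher in siNPM1 without overlap. The groups did not overlap for 9 members, higher in siNPM1, a share of 25.0% beside 23.2% of all tested genes, and for 2, lower, beside 14.9%. The 9 were HSPA8, HSPA9, CANX, CALR, HYOU1, SDF2L1, PDIA3, PDIA4 and PDIA6. HSPA5 had a log2 fold change of 0.19 without that library (limma, adjusted p = 0.711), opposite in sign to the -0.21 with all libraries, and CALR had 0.41 (adjusted p = 0.295).

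**Figure D4:**
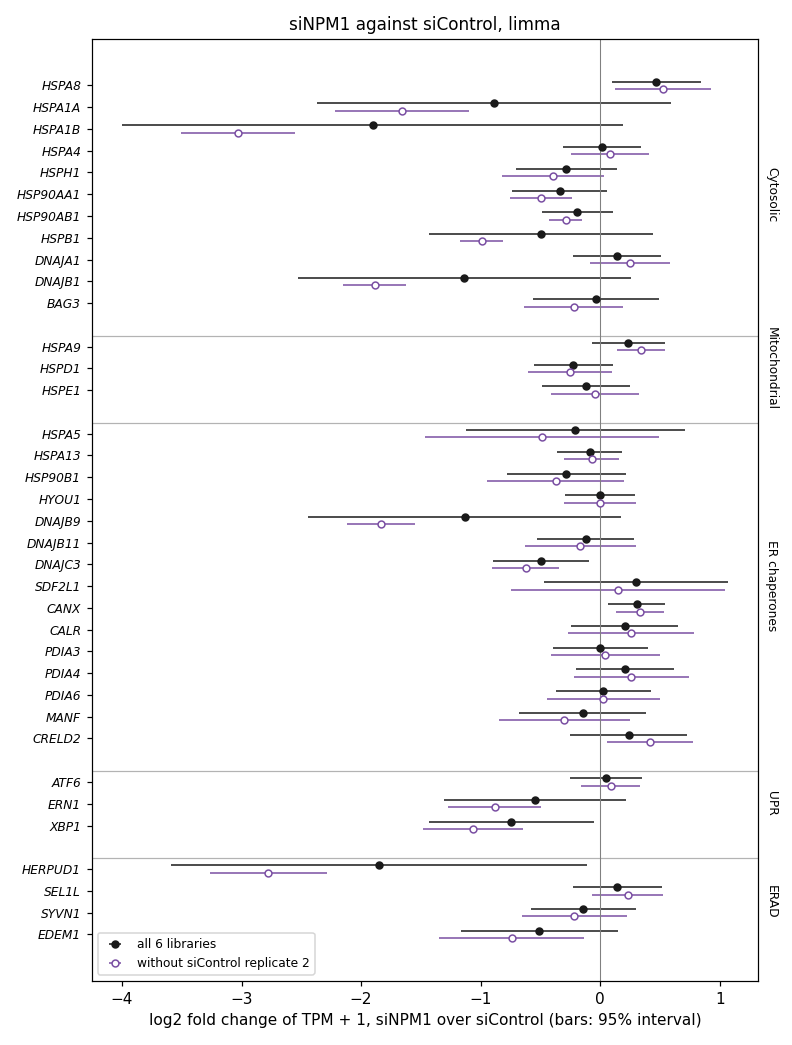
log2 fold change of TPM + 1, siNPM1 over siControl (horizontal axis), for the 36 genes by class, with 95% intervals from limma. Filled points use all 6 libraries and open points leave out siControl replicate 2; HSPA1A, HSPA1B, HSPB1, DNAJB1, DNAJB9 and HERPUD1 lie further below 0, with shorter intervals, in the open points.

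The other genes of the folding and quality control pathways were counted from 7 lists with 141 genes, of which 139 were tested. None passed (limma), 14 had an unadjusted p under 0.05 (19.7% of all tested genes did), the fold change was positive for 60 and negative for 79, and the median log2 fold change was -0.06. The groups did not overlap for 12 of them, higher in siNPM1, and for 14, lower, beside 16.2% and 8.55% of all tested genes. Medians by list ran from -0.17 for the other UPR regulators (17 genes, 6 positive and 11 negative) to 0.12 for the other ER folding enzymes (26 genes, 16 positive and 10 negative). The other cytosolic chaperones and HSF factors (28 tested, 9 positive and 19 negative) had a median of -0.07, CCT and prefoldin subunits (14 genes, 4 positive and 10 negative) -0.06, and other mitochondrial chaperones and proteases (14 genes, 6 positive and 8 negative) -0.04. The ER translocon and signal peptidase (17 genes, 7 positive and 10 negative) had -0.06, and other ERAD genes (23 genes, 12 positive and 11 negative) 0.02. Without siControl replicate 2, 27 of the 139 passed as higher and 23 as lower (limma), beside 24.1% and 12.9% of all tested genes.

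Of the regulators, HSF1, HSF2, EIF2AK3 and DDIT3 overlapped between the groups and ATF4 did not. The 3 ER stress genes were high in siControl replicates 1 and 3. HSF1, the heat shock transcription factor, stood at 28.05, 24.95 and 27.2 TPM in siNPM1, against 28.13, 23.5 and 30.9 TPM in siControl. Its order was the same within a narrow range, with siControl replicates 1 and 3 highest and siControl replicate 2 lowest. HSF2 stood at 16.6, 11.7 and 13.3 TPM in siNPM1, against 20.8, 13.5 and 16.4 TPM in siControl. EIF2AK3, which encodes the ER stress kinase PERK, stood at 21.2, 24.1 and 25.7 TPM in siNPM1, against 51.8, 15.6 and 48.4 TPM in siControl. ATF4, the transcription factor translated downstream of PERK, stood at 322, 274 and 279 TPM in siNPM1, against 742, 349.6 and 773 TPM in siControl, without overlap (limma log2 fold change -1.01, adjusted p = 0.218). DDIT3, the stress gene CHOP, stood at 16.7, 7.64 and 10.4 TPM in siNPM1, against 234, 2.56 and 254 TPM in siControl, with siControl replicate 2 the lowest of all.

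Among the list genes with the smallest p, the order of the controls differed. DNAJA4, a J-domain cochaperone, stood at 3.55, 6.85 and 5.13 TPM in siNPM1, against 9.68, 12.7 and 11.02 TPM in siControl, without overlap and with siControl replicate 2 the highest (limma log2 fold change -1.002, adjusted p = 0.200). CDC37, the Hsp90 cochaperone for kinases, stood at 112, 136 and 137 TPM in siNPM1, against 76.3, 94.5 and 75.6 TPM in siControl (log2 fold change 0.64, adjusted p = 0.189), and CCT3, a subunit of the cytosolic chaperonin, at 311, 339.8 and 359 TPM in siNPM1 against 263, 289 and 271 TPM in siControl. TMX1, a membrane-bound ER thioredoxin, stood at 77.4, 64.9 and 60.1 TPM in siNPM1, against 29.9, 56.7 and 26.6 TPM in siControl. In these last 3 genes each siNPM1 library was above each control, and siControl replicate 2 was the nearest to them. By the same rule the log2 fold changes were 0.23 for CCT2, 0.51 for DNAJC19, -0.54 for GRPEL2, 0.82 for TMX3, -0.37 for SEC61G, 0.28 for SPCS1, -0.70 for UBE2J1 and -0.67 for TRIB3, none of which passed. HSPA6, a strictly inducible Hsp70 gene, was too low to be tested and was chosen after its values were seen. Its level was 0.07, 0.03 and 0.14 TPM in siNPM1, against 1.32 and 1.41 TPM in siControl replicates 1 and 3, and it was listed at 0 in siControl replicate 2. CRYAB, the other gene of the 7 lists too low to be tested, did not share that order. It stood at 0.93, 0.94 and 0.92 TPM in siNPM1, against 0.36, 1.56 and 1.14 TPM in siControl, with siControl replicate 2 the highest.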

How the data were processed

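The authors deposited TPM values per gene and library in a single table. Its genome build is GRCh38, per the submitters' processing notes. How reads were aligned and counted, and with which annotation, is not given in the sources used here. TPM keeps no sequencing depth, so precision was judged from the replicates alone. Library columns were assigned by sample title and treatment label. The authors' 2 columns of group means were left out.

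Genes averaging 1 TPM or more over the 6 libraries (15768) were compared as log2(TPM + 1) with limma 3.58.1 in R 4.3.3, using its trend option, and p-values were adjusted by Benjamini-Hochberg over all of them. This scale understates the change of low genes. The code was tested on simulated data. Exact tests used scipy 1.17.1. The genes named are the 36 members, NPM1, 5 regulators (HSF1, HSF2, EIF2AK3, ATF4 and DDIT3), cell markers and, since none passed, the 2 genes of each list with the smallest p. One gene that this rule names is not reported here. Any other choice is marked. The members, classes and lists were chosen with earlier results of these data known. Gene positions and shared 50-base stretches come from GENCODE release 29, and promoter windows from RefSeq.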

Additional observations from a re-analysis of the deposited data

How the results depend on the processing

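With each library left out in turn, the number of members past the threshold ran from 0 to 13 (limma), the number without overlap from 4 to 22, and the number of all genes past it from 1 to 5833. The highest of each came without siControl replicate 2. Genes past the threshold numbered 2 with a mean of at least 5 TPM, where ERN1 was not tested, 1 with no filter on low values and 1 with the replicate block, against 4, and no member passed in any of these. Same-numbered libraries correlated in their deviations from the group means at 0.065, 0.081 and -0.038. The same-numbered control was the best match of siNPM1 replicate 1, with siControl replicate 3 next at 0.064, and of siNPM1 replicate 2. siNPM1 replicate 3 correlated best with siControl replicate 2, at 0.027. Correlations this small, from 3 libraries a side, cannot settle whether the numbers pair the samples. Centring each library on its median put all genes at a median of -0.02, against 0.10, and gave log2 fold changes of -0.078 for ATF6, -0.11 for HSPA4, -0.13 for HYOU1 and -0.10 for PDIA6. Quantile normalization gave -0.061 for ATF6 and 0.18 for PDIA3. Rescaling without mitochondrial and ribosomal protein genes put the median of all genes at 0.20 and gave 0.044 for BAG3, 0.048 for HSF1 and 0.084 for PDIA3. Leaving out single libraries turned the sign of small differences. The range was -0.0067 to 0.088 for ATF6, -0.22 to 0.11 for BAG3, -0.21 to 0.056 for DNAJB11 and -0.14 to 0.051 for HSF1. It was -0.067 to 0.13 for HSPA4, -0.49 to 0.19 for HSPA5, -0.20 to 0.023 for HSPE1 and -0.067 to 0.10 for HYOU1. It was -0.30 to 0.070 for MANF, -0.10 to 0.18 for PDIA3, -0.073 to 0.21 for PDIA6 and -0.23 to 0.016 for SYVN1. The cause of these shifts was not tested. Of 777 comparisons of single genes with another setting, 717 kept their direction and side of the threshold. TPM keeps no depth, so counting error could not be separated from the spread between libraries.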
